A study of Sus scrofa with 8 samples.

Results

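The cytotoxic granule genes described here are 6 pig genes: PRF1 (perforin), NKL (NK-lysin) and the granzymes GZMA, GZMB, GZMH and GZMM. They were chosen by name, as all probes whose platform gene symbol is one of these 6, and not by their values. They have 10 probes of 43603 on the array, and the series holds 4560 genes with a symbol. PRF1 and NKL have 1 probe each and every granzyme has 2, which are called the brighter and the dimmer probe after their mean over all samples. Levels of different probes are not set against each other.

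Colostrum, the first milk, and blood were taken from 2 sows of the cross Large White x Landrace, and transcript levels of their T cells were measured on oligonucleotide arrays to compare the sources. The 4 groups were double positive cells of colostrum, double positive cells of blood, CD8 single positive cells of colostrum and CD8 single positive cells of blood, with 1 sample from each sow in every group (n = 2). Double positive cells were sorted as CD3+CD4+CD8+ and CD8 single positive cells as CD3+CD4-CD8+, and since the sample titles of the double positive group name both populations, this group rests on the sort and the design text. No treatment is labelled. All samples share the amplification of 10 ng of total RNA to cDNA. Every colostrum sample was labelled with Alexa Fluor 3 and every blood sample with Alexa Fluor 5, so dye and source cannot be told apart in colostrum against blood, while both populations of a source carry the same dye. The replicate number is the sow.

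Killer lymphocytes store perforin and granzymes in secretory lysosomes and release them toward a bound target cell. Perforin opens pores in the target membrane, and granzymes are serine proteases that enter through them and cut proteins of the target cell. NK-lysin is a membrane-disrupting, antimicrobial saposin-like protein first isolated from pig intestine, and the pig counterpart of human granulysin. In the pig, T cells with both CD4 and CD8 are normal, mature cells of blood and tissues, known mainly as activated and memory helper cells that carry CD8 as alpha chains, whereas CD8 single positive T cells with the CD8 beta chain are the classical cytotoxic cells.

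Levels are quantile-normalized log2 intensities with a floor at 5.34, and a probe is called above background in a sample where it exceeded the 95th percentile of the negative-control spots, which lay between 6.83 and 6.96 in colostrum and between 6.78 and 7.05 in blood. Before normalization the median intensity was 118 to 133 units in colostrum and 27 to 34 units in blood. Of the genes of the sort, CD3D and CD3E had means of 11.63 to 12.08 in all 4 groups. CD4 averaged 7.06 in colostrum double positive cells and 9.06 in blood double positive cells, against 6.14 in colostrum CD8 single positive cells, where 1 of 2 samples was above background, and 5.34, the floor, in blood CD8 single positive cells. CD8A averaged 7.55 in colostrum and 7.62 in blood double positive cells, against CD8 single positive means of 8.56 in colostrum and 9.28 in blood. Its other probe had 6.71 and 8.08 in colostrum double positive cells and the floor in both blood double positive samples, against 5.34 and 6.98 in colostrum and 6.88 and 7.57 in blood CD8 single positive samples, so in colostrum the CD8A probes differed in direction. CD8B averaged 5.97 in colostrum and 5.36 in blood double positive cells, below the thresholds in both, against CD8 single positive means of 9.71 in colostrum and 8.31 in blood. The level of CD4 in colostrum double positive cells lay close to the threshold.

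PRF1 encodes the pore-forming protein. Its level was 6.96 and 6.39 (sow 1 and sow 2) in colostrum double positive cells and 7.73 and 6.18 in blood double positive cells. It was 10.96 and 10.09 in colostrum CD8 single positive cells and 11.42 and 10.58 in blood CD8 single positive cells. All 4 double positive samples lay below all 4 CD8 single positive samples, and in each double positive group only the sample of sow 1 was above background. By mean, the order ran from colostrum double positive (6.67 ± 0.40, SD, n = 2) through blood double positive (6.95 ± 1.10) and colostrum CD8 single positive (10.52 ± 0.62) to blood CD8 single positive (11.00 ± 0.59). Within either population the samples of colostrum and blood overlapped.

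NKL, which the RefSeq annotation of Sscrofa11.1 lists as a synonym of GNLY, was above background in every sample. Its level was 9.21 and 7.86 in colostrum double positive cells and 11.15 and 9.77 in blood double positive cells. It was 12.08 and 11.84 in colostrum CD8 single positive cells and 13.48 and 14.14 in blood CD8 single positive cells. The 4 groups followed one another without overlap in that order, with means of 8.53 ± 0.95, 10.46 ± 0.98, 11.96 ± 0.17 and 13.81 ± 0.47 (SD, n = 2 each). Within each population, both colostrum samples of NKL lay below both blood samples.

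GZMB is a granzyme that cuts after aspartate and activates caspases in the target cell. Its brighter probe had 9.44 and 6.86 in colostrum double positive cells and 6.81 and 5.34 in blood double positive cells. The same probe had 10.82 and 10.33 in colostrum CD8 single positive cells and 10.31 and 9.47 in blood CD8 single positive cells. Every CD8 single positive sample lay above every double positive sample, by a narrow margin for the colostrum double positive sample of sow 1. The dimmer probe gave 9.41 and 6.53 in colostrum double positive cells and 7.08 and 5.41 in blood double positive cells, against 10.33 and 10.53 in colostrum and 9.50 and 9.17 in blood CD8 single positive samples. With both probes, the double positive samples above background were those of sow 1, and with the dimmer one the colostrum sample of sow 1 exceeded a blood CD8 single positive sample.

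GZMH, a granzyme known in humans for a chymotrypsin-like specificity, lies next to GZMB in the RefSeq annotation of Sscrofa11.1, with 0 protein-coding genes between them. Its brighter probe had 9.66 and 9.67 in colostrum double positive cells and 11.38 and 11.42 in blood double positive cells. It had 11.32 and 11.82 in colostrum CD8 single positive cells and 12.37 and 13.59 in blood CD8 single positive cells. Here the blood double positive samples fell within the range of colostrum CD8 single positive cells, so that the neighbours in the middle of the order did not differ beyond their spread. The dimmer probe gave 7.74 and 9.01 in colostrum and 9.34 and 10.74 in blood double positive cells, against 10.37 and 10.54 in colostrum and 11.29 and 12.29 in blood CD8 single positive cells. Both probes were above background in all 8 samples, the only granzyme probes that were, and with the dimmer one too a blood double positive sample exceeded those of colostrum CD8 single positive cells.

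GZMA is a tryptase-like granzyme. Its brighter probe had 6.92 and 6.45 in colostrum double positive cells and 6.18 and 5.34 in blood double positive cells. It had 9.03 and 8.06 in colostrum CD8 single positive cells and 5.34 and 6.69 in blood CD8 single positive cells. Both samples of colostrum CD8 single positive cells stood above all others, and elsewhere only colostrum double positive cells of sow 1 were above background. The dimmer probe gave 6.29 and 5.34 in colostrum and 6.76 and 5.99 in blood double positive cells, against 7.23 and 7.31 in colostrum and 5.34 and 7.03 in blood CD8 single positive cells. It too was above background in both samples of colostrum CD8 single positive cells and in no other sample. The annotation holds 2 genes with the symbol GZMA, and which of them the probes read was not tested.

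GZMM is a granzyme that prefers to cut after methionine or leucine. Its brighter probe had 6.62 and 6.70 in colostrum double positive cells, neither above background, and 7.28 and 6.12 in blood double positive cells. It had 7.80 and 7.93 in colostrum CD8 single positive cells and 8.42 and 8.67 in blood CD8 single positive cells. This probe placed the 4 CD8 single positive samples above all double positive samples. The dimmer probe gave 7.07 and 5.55 in colostrum and 7.40 and 6.21 in blood double positive cells, against 6.98 and 7.53 in colostrum and 8.61 and 8.82 in blood CD8 single positive samples. With this probe the colostrum samples of the populations overlapped, since sow 1 had the higher level in double positive cells.

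**Figure D1:**
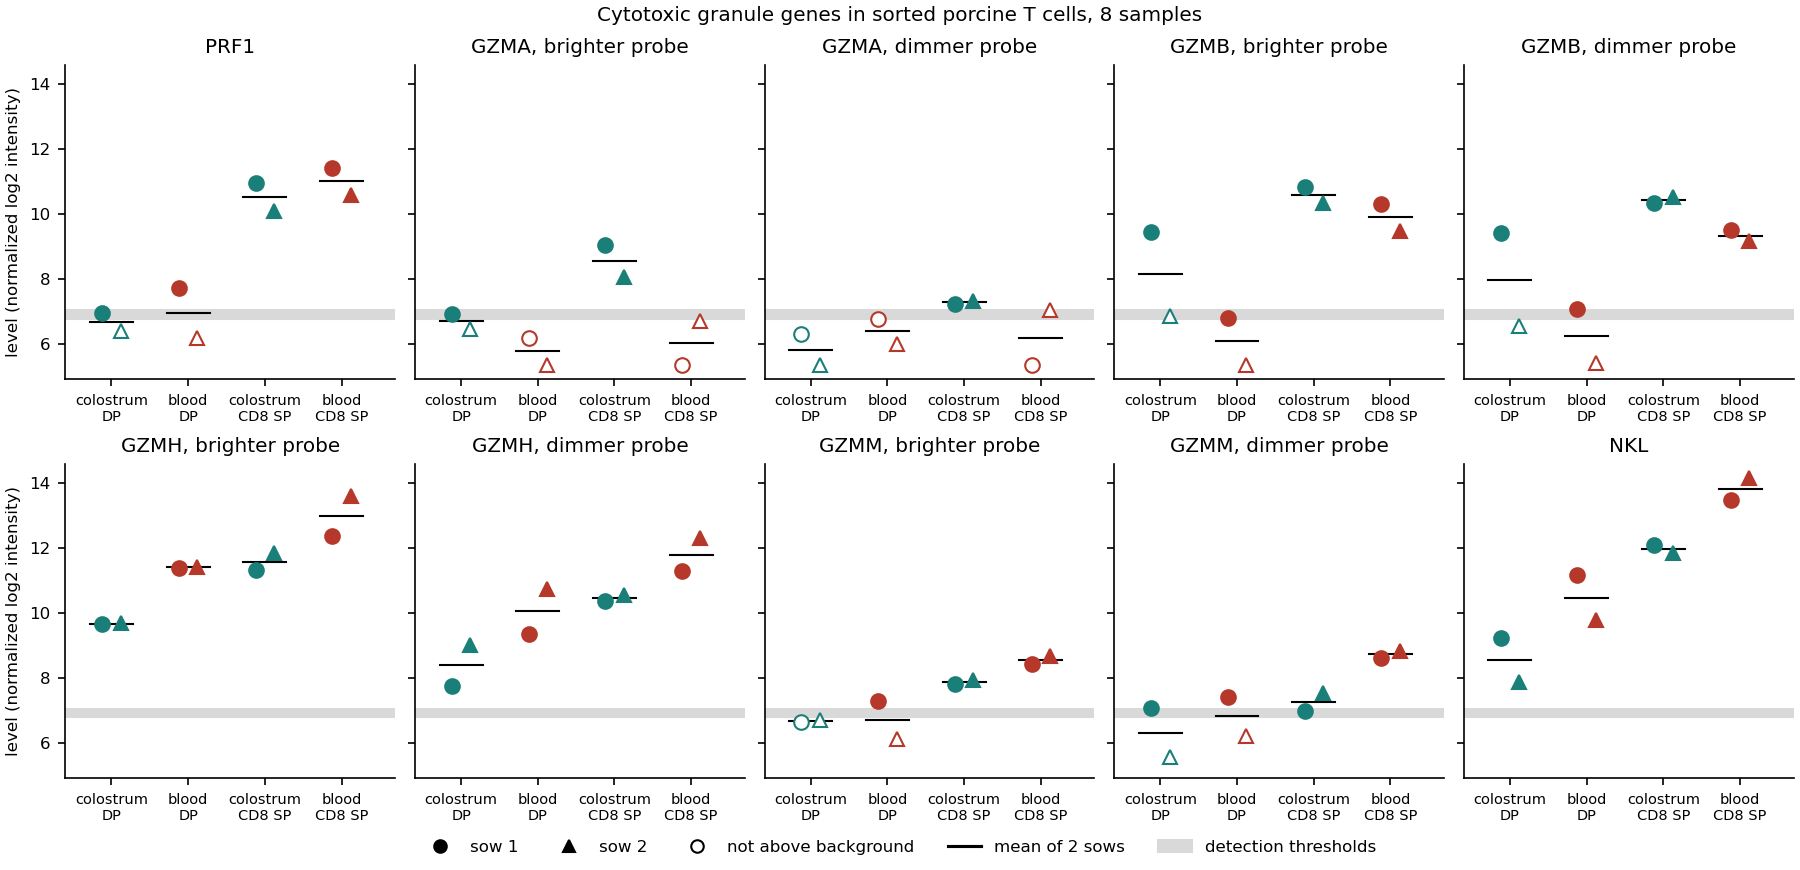
Normalized log2 intensity (y axis) of each of the 10 probes in the 8 samples, by group: colostrum and blood double positive (DP) cells, then colostrum and blood CD8 single positive (CD8 SP) cells. Circles are sow 1 and triangles sow 2, open symbols are not above background, the bar is the mean of 2 sows and the grey band spans the detection thresholds. The CD8 SP samples of PRF1 and NKL lie above all DP samples, while GZMA is above background in both sows only in colostrum CD8 SP cells.

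Double positive cells were compared with CD8 single positive cells within colostrum, within blood and as the mean of both sources. The mean of both sources was negative for all 10 granule gene probes, between -3.95 and -0.63 on the log2 scale with a median of -1.83, against a median of -0.0014 over all 30522 probes tested. PRF1 and NKL had the most negative values, followed by GZMB, while the dimmer GZMA probe at -0.63 had an interval of -1.66 to 0.40 and opposite signs in the sows. In sorted bulk RNA, fewer cells that express a gene and less RNA per expressing cell cannot be told apart. No granule gene probe passed limma's test with Benjamini-Hochberg adjustment over all probes at 0.05 in any of these 3 comparisons, where the smallest adjusted p was 0.669 in colostrum, 0.972 in blood and 0.0561 for the mean of both sources.

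PRF1 differed by -3.85 ± 0.65 (SE, n = 2 per group) in colostrum and by -4.05 ± 0.65 in blood. The mean of both was -3.95 ± 0.46, with a 95% interval of -4.98 to -2.93 and similar values of -3.85 in sow 1 and -4.05 in sow 2 (limma adjusted p = 0.0561, rank 3 of 30522 probes). With the sow as a replicate block the limma adjusted p was 0.0215, which passes, but with a random block of sow and population it was 0.129. With normexp background correction the limma adjusted p was 0.000367. PRF1 did not pass under 75th percentile scaling (0.24), cyclic loess (0.194), a floor of 16 units (0.281) or with the authors' deposited log2 values (0.297).

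NKL differed by -3.43 ± 0.65 in colostrum and -3.35 ± 0.65 in blood. The mean was -3.39 ± 0.46, 10.5-fold lower, with an interval of -4.41 to -2.36 (limma adjusted p = 0.114, rank 6). Sow 1 gave -2.60 and sow 2 gave -4.18. With normexp background correction in place of the values as deposited, PRF1 at -3.32 (adjusted p = 0.000367) and NKL at -3.24 (adjusted p = 0.000578) both passed. NKL did not pass under 75th percentile scaling (limma adjusted p = 0.181), cyclic loess (0.23) or with the sow as a replicate block (0.141).

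Among the granzymes, GZMB had the largest differences, with -2.43 ± 0.84 in colostrum and -3.81 ± 0.84 in blood for the brighter probe and -2.46 ± 0.88 and -3.09 ± 0.88 for the dimmer one. The mean of both sources was -3.12 ± 0.59 for the brighter probe (limma adjusted p = 0.345, rank 23), and -2.50 with normexp background correction (limma adjusted p = 0.0233). It rests on double positive cells in which sow 2 was not above background in either source and at the floor in blood. Within colostrum this rested more on sow 2, where the brighter probe differed by -3.48 and the dimmer by -3.99, against -1.38 and -0.92 in sow 1. GZMH differed by -1.91 ± 0.55 in colostrum and -1.58 ± 0.55 in blood with the brighter probe. The dimmer GZMH probe gave -2.08 ± 0.67 and -1.75 ± 0.67, and in every comparison the GZMH probes lay within 0.17 of each other.

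GZMM differed by -1.85 ± 0.54 in blood with the brighter probe and by -1.91 ± 0.65 with the dimmer one. In colostrum the brighter probe was at least 1.91-fold lower, a bound given because neither double positive sample there was above background. "At least" takes, for each sample of the dimmer group, the lowest level of any probe above background there, or the value of the probe where that is higher. It allows for the detection limit only and not for the spread between samples. The measured difference was -1.20 ± 0.54, with a 95% interval of -2.40 to -0.0065. The dimmer GZMM probe differed in colostrum by -0.95 ± 0.65, with 0.082 in sow 1 and -1.98 in sow 2.

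For GZMA, only colostrum held a group with both samples above background. In colostrum its brighter probe differed by -1.86 ± 0.63 and its dimmer probe was at least 1.26-fold lower in double positive cells. The measured difference of the dimmer probe was -1.45 ± 0.66, with a 95% interval of -2.91 to 0.0097, which includes 0. In blood neither probe was above background in any sample of either population, so no fold is given there. The measured blood differences were -0.25 and 0.19, with opposite signs in the sows, and the second turned to -0.26 under 75th percentile scaling and to -0.090 under cyclic loess.

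Counts over the 10 probes can be read against all probes tested. In colostrum the double positive samples lay wholly below the CD8 single positive samples for 9 of 10 granule gene probes, against 16.3% of all probes. In blood this held for 8 of 10 probes, against 16.6%. With both sources together, all 4 double positive samples lay below all 4 CD8 single positive samples for 4 of 10 probes, those of PRF1 and NKL and the brighter probes of GZMB and GZMM, against 2.66%. At an unadjusted p under 0.05, limma placed 8 of 10 probes lower in colostrum, 8 of 10 in blood and 9 of 10 for the mean of both, against 3.58%, 2.48% and 4.95% of all probes. After adjustment it called 0 of 10 for the mean of both, against 0.00328%, which is the chemokine gene CCL5 at -3.74 ± 0.35 (adjusted p = 0.0222), a gene chosen after its values were seen. The comparisons share samples and are not independent of each other. The 10 probes read 6 genes, and both probes of a granzyme are counted, so the probes are not independent either.

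**Figure D2:**
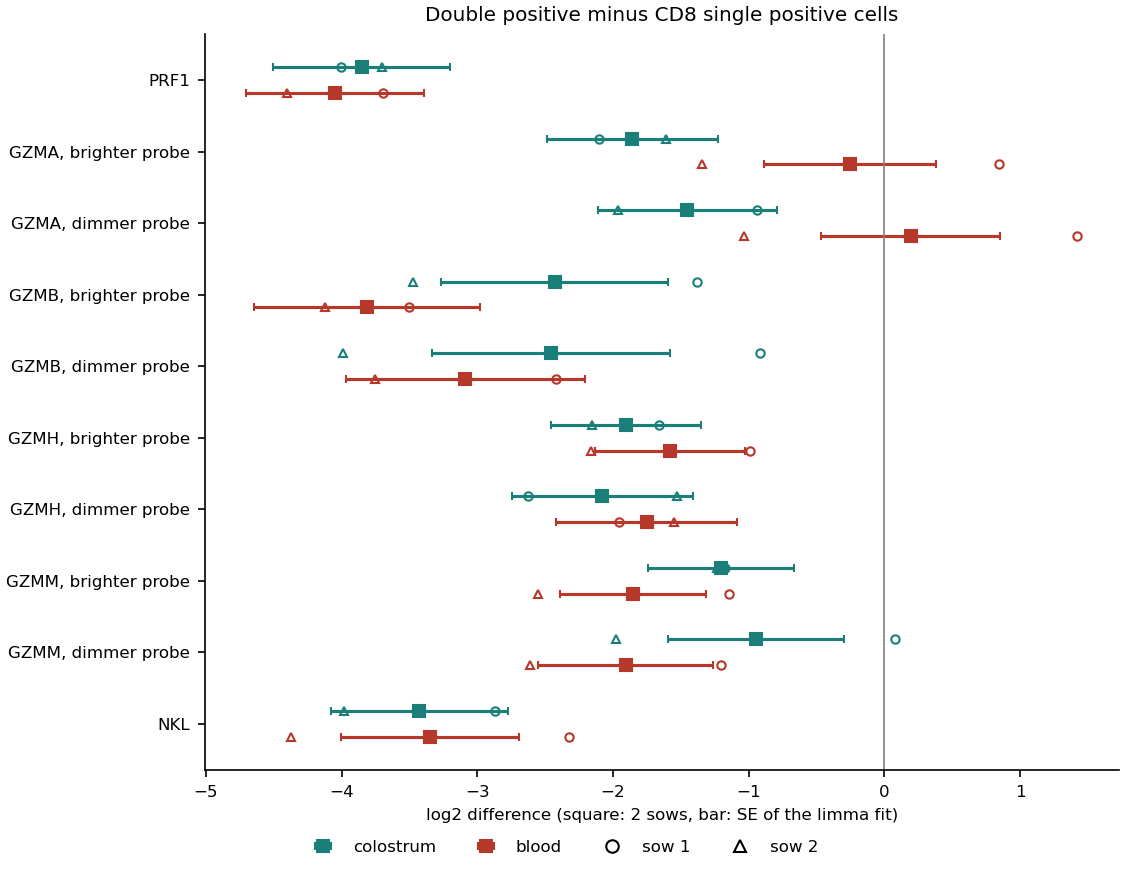
Log2 difference of double positive minus CD8 single positive cells (x axis) for each of the 10 probes (y axis), in colostrum and in blood. Squares are the difference of group means with the SE of the limma fit as bars, circles are sow 1 and triangles sow 2. PRF1 and NKL lie between -4.05 and -3.35 in both sources, and only the GZMA probes straddle 0 in blood.

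Other genes of the sorted cells were read beside this comparison. CD8B, the gene of the CD8 beta chain, differed by -3.35 ± 0.39 for the mean of both sources (limma adjusted p = 0.0561), and by -2.07 with its second probe. Both populations were sorted as CD8 positive, and CD4 separated them. Of the 10 genes listed for NK and gamma delta T cells, FCER1G and TYROBP had a tested probe. Their summed intensity was 131 to 238 units in colostrum and 143 to 249 units in blood double positive cells, against 670 to 697 units in colostrum and 201 to 359 units in blood CD8 single positive cells. FCER1G, the Fc receptor gamma chain, had a mean difference of -1.72 ± 0.51 (limma adjusted p = 0.361). The milk protein gene CSN1S1 reached 7.36 and 11.38 in colostrum CD8 single positive cells and was not above background in colostrum double positive cells. The other CSN1S1 probes differed between the populations of colostrum by -0.57 to 0.51. A further CSN2 probe (6.90 and 8.71) and a further CSN3 probe (6.87 and 7.99) were above background in both colostrum CD8 single positive samples. They differed between the populations of colostrum by -2.46 and -1.76. A further CSN1S2 probe went the other way by 1.92, with 7.28 and 7.24 in colostrum double positive cells. Of the 9 genes listed for mammary epithelium and milk proteins, 6 had a tested probe. In colostrum, with the brightest probe of each gene, 3 of these 6 were higher and 3 lower in double positive cells. Their median was 0.036, against -0.0017 over all probes. The B cell gene CD79A, the only tested gene of 6 listed for B and plasma cells, was at 6.59 and 9.48 in colostrum and 6.31 and 6.40 in blood double positive cells, against 7.62 and 8.76 in colostrum and 8.82 and 8.54 in blood CD8 single positive samples. Its difference was -0.15 in colostrum, with opposite signs in the sows. Its difference of -2.32 ± 0.84 in blood and -1.24 ± 0.59 for the mean of both sources had the sign of the granule genes (limma adjusted p = 0.972 and 0.532). The part of other cells in the granule gene differences was not tested.

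Colostrum was compared with blood within each population, the question the series was designed for. The granule genes had differences of both signs. NKL and GZMH were lower in colostrum in both populations and both sows, GZMB had positive values in double positive cells and GZMA in CD8 single positive cells, and PRF1 differed by less than its error. No probe passed limma's adjusted test, with a smallest adjusted p of 0.725 in double positive cells and 0.895 in CD8 single positive cells. At an unadjusted p under 0.05, 3 of 10 probes were lower (3.32% of all probes) and 1 higher (3%) in double positive cells, and 3 were lower (2.53%) and 1 higher (2.92%) in CD8 single positive cells.

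NKL differed by -1.93 ± 0.65 in double positive cells (-1.94 in sow 1 and -1.91 in sow 2, limma adjusted p = 0.741). In CD8 single positive cells it differed by -1.85 ± 0.65 (-1.40 and -2.30, limma adjusted p = 0.897). These are levels 3.80-fold and 3.60-fold lower in colostrum. The 2 samples of colostrum lay below the 2 of blood in each population.

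GZMH followed the same pattern, with -1.73 ± 0.55 in double positive cells (-1.72 and -1.75 in the sows) and -1.41 ± 0.55 in CD8 single positive cells (-1.05 and -1.76) for the brighter probe. The dimmer probe gave -1.66 ± 0.67 in double positive cells and -1.34 ± 0.67 in CD8 single positive cells. The direction of NKL and GZMH held under every scaling tried. Scaling to the 75th percentile shifted the median of all probes by 0.26 in double positive and 0.23 in CD8 single positive cells, and there NKL was at -3.31 and -3.51 and the brighter GZMH probe at -3.39 and -3.02.

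GZMB differed by 2.07 ± 0.84 in double positive cells with the brighter probe (2.63 in sow 1 and 1.51 in sow 2, limma adjusted p = 0.761) and by 1.73 ± 0.88 with the dimmer one, whose colostrum and blood samples overlapped. In colostrum and in blood, 1 of 2 double positive samples was above background with either probe, and without colostrum double positive cells of sow 1 the differences were 0.78 and 0.29. In CD8 single positive cells GZMB differed by 0.69 ± 0.84 and 1.10 ± 0.88, but by -0.65 and -0.17 under 75th percentile scaling, so its direction there depends on the scaling.

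GZMA was at least 3.05-fold higher in colostrum than in blood CD8 single positive cells with its brighter probe, whose measured difference was 2.53 ± 0.63 (3.68 in sow 1 and 1.37 in sow 2, limma adjusted p = 0.895). The dimmer probe was at least 1.26-fold higher by the same rule, with a measured difference of 1.09 ± 0.66 (1.89 in sow 1 and 0.28 in sow 2). Its 95% interval of -0.38 to 2.55 includes 0. The bounds of both probes leave out the spread between samples. In double positive cells the probes disagreed, with 0.92 ± 0.63 for the brighter and -0.56 ± 0.66 for the dimmer one, which turned to 0.33 under 75th percentile scaling. In blood neither double positive sample was above background with either probe.

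PRF1 differed by -0.28 ± 0.65 in double positive cells, with an interval of -1.73 to 1.17, and by -0.48 ± 0.65 in CD8 single positive cells, with an interval of -1.93 to 0.97. Its difference in double positive cells was 0.030 under 75th percentile scaling and 0.99 under cyclic loess. The intervals leave room for a level several fold higher or lower, so the values do not show that PRF1 was equal in colostrum and blood. GZMM differed in CD8 single positive cells by -0.68 ± 0.54 with the brighter probe and -1.45 ± 0.65 with the dimmer one (limma adjusted p = 0.912). In double positive cells it differed by -0.037 and -0.50, which turned to 0.51 and 0.029 under 75th percentile scaling and to 0.84 and 0.40 under cyclic loess.

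In double positive cells, the 2 colostrum samples lay wholly below the 2 blood samples for 3 of 10 probes (18.1% of all probes) and wholly above for 2 (16.6%). In CD8 single positive cells they lay below for 5 (18.4%) and above for 4 (16.1%). The 3 probes below in double positive cells were those of NKL and GZMH.

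**Figure D3:**
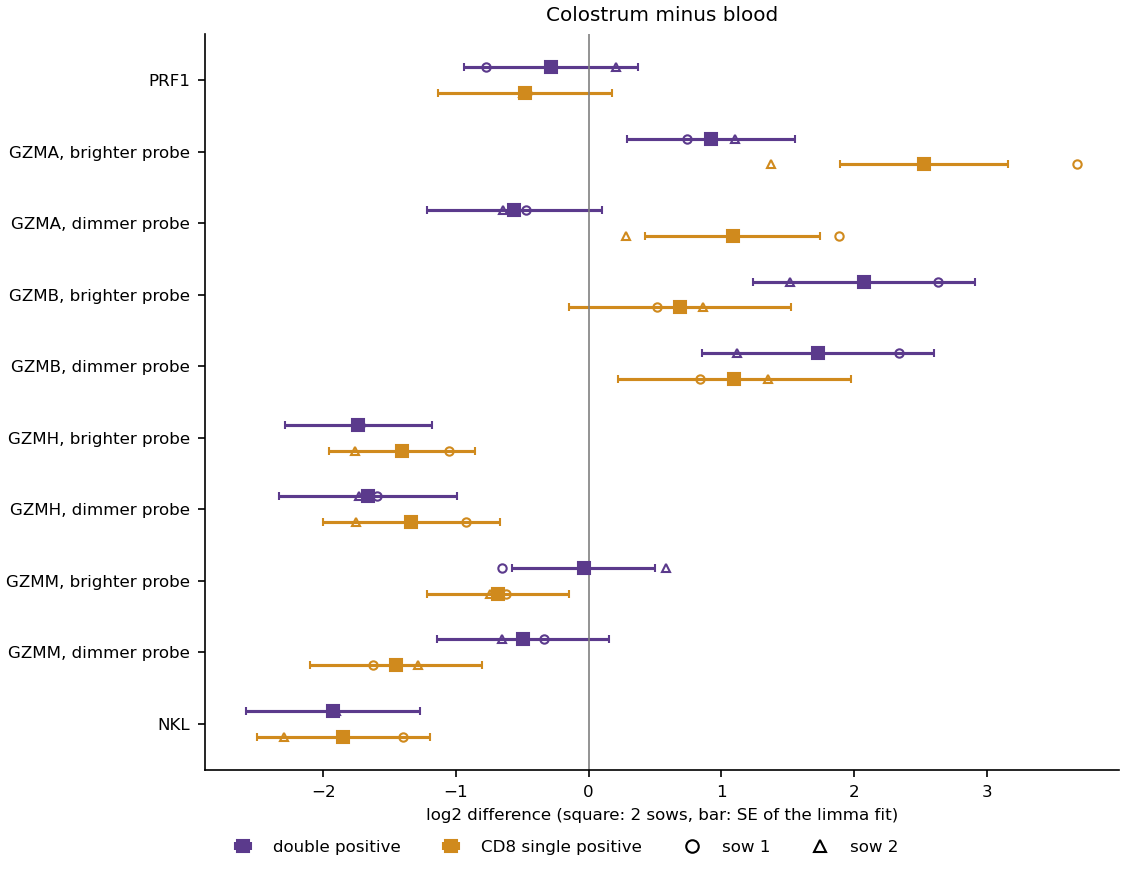
Log2 difference of colostrum minus blood (x axis) for each of the 10 probes (y axis), in double positive and in CD8 single positive cells. Squares are the difference of group means with the SE of the limma fit as bars, circles are sow 1 and triangles sow 2. NKL and GZMH lie left of 0 in both populations, and GZMB lies right of 0, though under 75th percentile scaling GZMB turns to -0.65 and -0.17 in CD8 single positive cells.

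The difference between these source differences, double positive minus CD8 single positive, was tested with the interaction term of the fit. It was 1.38 ± 1.18 for the brighter and 0.63 ± 1.24 for the dimmer GZMB probe, -1.60 ± 0.90 and -1.65 ± 0.93 for the GZMA probes, and -0.078 ± 0.92 for NKL. All 10 probes had a limma adjusted p of 1, and 0 of 10 were under an unadjusted p of 0.05, against 2.23% of all probes. A different response of colostrum and blood between the populations was thus not detectable for any of the granule genes with 2 sows.

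The sows differed within double positive cells, and not in one way for all genes. Sow 1 exceeded sow 2 for GZMB by 2.58 and 2.88 (brighter and dimmer probe) in colostrum and by 1.46 and 1.66 in blood. NKL showed a gap in the same direction, 1.35 in colostrum and 1.39 in blood. For GZMH the brighter probe differed between the sows by -0.014 in colostrum and -0.042 in blood, and the dimmer probe by -1.27 and -1.41, in the opposite direction to GZMB. In CD8 single positive cells the GZMB gap was 0.49 in colostrum and 0.84 in blood with the brighter probe, and -0.19 and 0.32 with the dimmer one. Only 2 sows were sampled, and the gap was not tested.

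Genes that make, sort, release, induce or receive the granule proteins were read from 5 lists. Of 14 other granule proteins 5 had a tested probe, of 22 genes of granule sorting and release 8, of 17 regulators of the cytotoxic programme 11, of 20 cytokines and receptors of killer cells 12 and of 18 genes of the target side 10. Limma called 0 of these genes after adjustment in any comparison. For double positive minus CD8 single positive cells as the mean of both sources, the list medians were -0.13, 0.16, 0.30, 0.10 and 0.26 in that order, against -1.83 for the granule gene probes. The lists use 1 probe per gene, while the value for the granule genes is over all their probes. At an unadjusted limma p under 0.05, 1 of 5, 0 of 8, 1 of 11 and 1 of 12 were lower in the first 4 lists, and 1 of 10 was higher in the last. Of all probes, 4.95% were lower and another 4.95% higher.

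Among the other granule proteins, CALR, a chaperone that also binds perforin, differed between the populations by -1.06 ± 0.42. GZMK, a tryptase-like granzyme that is the neighbour of GZMA in the annotation, had 6.61 and 7.70 in colostrum and 6.78 and 7.03 in blood double positive cells, against 7.11 and 7.31 in colostrum and 6.83 and 7.41 in blood CD8 single positive samples, and a mean difference of -0.13 ± 0.39. All GZMK groups overlapped near the detection threshold. CTSD, a lysosomal protease, differed between the populations by -0.52 ± 0.41, with -0.79 from its other probe. LAMP2, a lysosomal membrane protein, differed by 0.44 ± 0.57, and its other 4 probes by -0.15 to 0.67.

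KLRK1, the activating receptor NKG2D, had the largest population difference outside the 6 genes in these lists. Its level was 9.07 and 8.26 in colostrum and 7.26 and 7.79 in blood double positive cells. It was 10.98 and 10.38 in colostrum and 10.02 and 9.98 in blood CD8 single positive cells. The populations did not overlap, and the mean difference was -2.24 ± 0.38 (limma adjusted p = 0.234), with -2.06 from its other probe. ID2, a transcriptional regulator of effector T cells, differed by -1.32 ± 0.38 (adjusted p = 0.361), and its other 4 probes by -0.80 to -0.66. IFNG, the gene of interferon gamma, differed by -1.05 ± 0.48. STAT4, STAT5A and PRDM1, which act in cytokine signalling and effector differentiation, differed by 0.36 ± 0.37, 0.80 ± 0.48 and 0.67 ± 0.37. Their other probes gave -0.028 for STAT4, 0.17 and 1.32 for STAT5A and 0.075 and 0.019 for PRDM1.

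Between colostrum and blood, IFNG differed by 1.98 ± 0.68 in double positive and 2.15 ± 0.68 in CD8 single positive cells, with blood double positive cells not above background. IL12RB1, a chain of the interleukin 12 receptor, differed by 1.50 ± 0.77 and 1.08 ± 0.77, and IL2RG, the common cytokine receptor chain, by 0.91 ± 0.52 and 1.23 ± 0.52, with 0.69 and 0.60 from its other probe. STAT4 differed by 1.48 ± 0.53 in double positive and 0.90 ± 0.53 in CD8 single positive cells, but by 0.44 and -0.012 with its other probe. On the side of release, LYST, the lysosomal trafficking regulator, differed by -1.26 ± 0.61 and -1.62 ± 0.61 and was not above background in colostrum. AP3B1, an adaptor subunit of lysosomal sorting, differed by -1.20 ± 0.53 and -0.72 ± 0.53, with -0.91 and 0.25 from its other probe. STXBP2, a syntaxin-binding protein needed for degranulation, differed by -0.39 ± 0.56 and -0.84 ± 0.56. M6PR, a mannose 6-phosphate receptor that delivers granzymes to granules, differed by -2.72 ± 1.06 and 0.42 ± 1.06, while its other 4 probes ran from -1.75 to 0.12 in double positive and from -0.46 to -0.15 in CD8 single positive cells.

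On the target side, MCL1, an inhibitor of mitochondrial cell death that granzyme B can cut, differed between colostrum and blood by 1.46 ± 0.54 in double positive and 1.29 ± 0.54 in CD8 single positive cells, while its other 5 probes ran from -0.63 to 0.40 and from -0.23 to 0.58. CASP8, an initiator caspase, differed by 0.52 ± 0.52 and 1.16 ± 0.52. Its other probes gave 1.48 and 1.22, and 0.30 and -0.70, so the sign in CD8 single positive cells depends on the probe. FAS, a death receptor, differed by -0.48 ± 0.48 and -0.52 ± 0.48, but by 0.66 and 1.12 with its other probe, so its direction depends on the probe. SERPINB9, the inhibitor that protects killer cells from granzyme B, differed by -0.91 ± 0.52 and -0.68 ± 0.52 and was above background in blood double positive cells only. None of these passed the adjusted test, and how far their signs hold under another scaling was not tested.

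**Figure D4:**
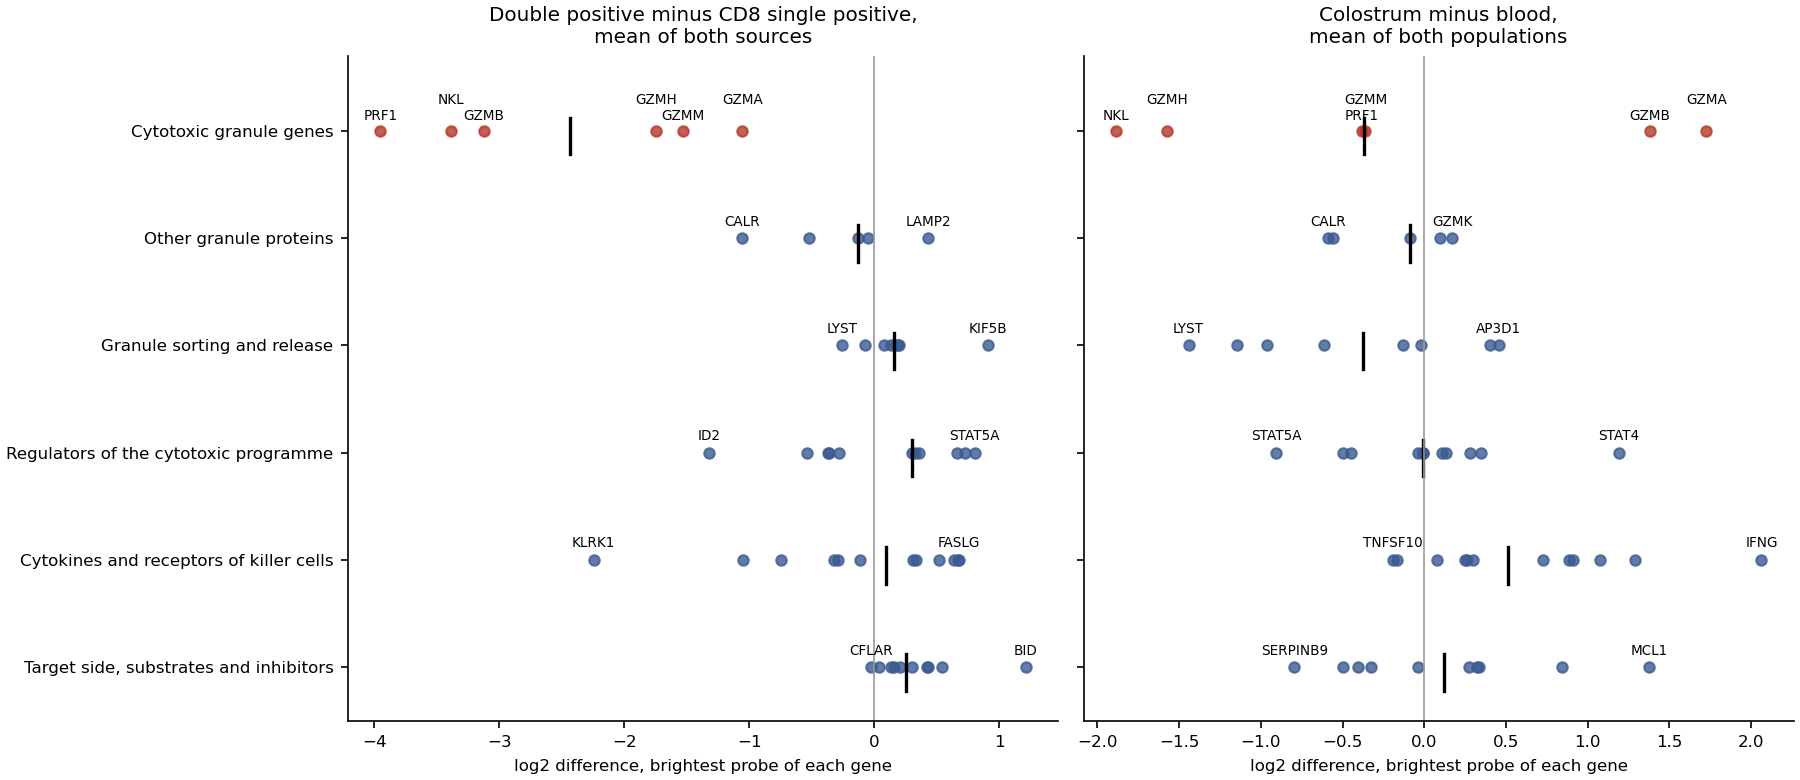
Log2 differences (x axes) of the brightest tested probe of each gene, for the 6 cytotoxic granule genes and 5 lists of other genes of the pathway (y axis). The left panel is double positive minus CD8 single positive cells as the mean of both sources, the right panel colostrum minus blood as the mean of both populations, the upright bar is the median of a list, and the outermost genes are named. In the left panel the 6 granule genes lie between -3.95 and -1.05, and KLRK1 at -2.24 is the lowest gene of the other lists.

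The genes whose level followed each granule gene most closely over the 8 samples were named from 3767 other genes by Pearson's r. The granule genes themselves were left out of this search. For NKL these were SLA-DQA1, a class II histocompatibility gene, with r = 0.945, CD8A with 0.920 and the histone methyltransferase EHMT2 with 0.917. GZMM was followed by CD8A with 0.964, the chemokine CCL4 with 0.960 and the phosphatase PTPRU with 0.947, and GZMH by EHMT2 with 0.965, ITM2C with 0.955 and TBX5 with 0.948. PRF1 was followed by ZNF37A with 0.965, OAZ2 with 0.948 and ZNF710 with 0.943. For GZMB the closest were LOC404703 with 0.968, FMO1 with 0.942 and GOLGA1 with 0.934, and for GZMA they were ACTB with 0.974, CDK20 with 0.955 and LHX3 with 0.941. This GZMA probe was above background only in colostrum CD8 single positive cells and in colostrum double positive cells of sow 1. Its r therefore rests largely on those samples. The samples share 2 sows, 2 dyes and 4 groups, so these values describe the likeness of patterns in these samples.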

How the data were processed

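Transcript levels of 8 samples were measured on arrays. The files deposited by the authors hold 1 whole-number intensity per spot for 45220 spots, some below 0, which is how values look after a background has been subtracted. How the arrays were scanned and their background removed is not given in the sources used here. A matrix of log2 values, deposited by the authors, has a median of 6.32 in every column. Of its values, 79.0% lay within 0.01 of quantile-normalized log2 values rebuilt from the intensities, so it runs in the same direction and was used as an alternative. It has 1 empty value among the granule gene probes, in the brighter GZMA probe, which was not compared there.

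Control spots were left out, repeated spots were averaged (50 probes), and 43603 probes were quantile normalized. A floor was set at 40.6 intensity units, the normalized median of 153 negative-control spots, before taking log2, and 14.1% of the tested values lay there. Values at the floor have no order. Per channel, 31.1% to 34.7% of the probes were above background in colostrum and 28.9% to 36.1% in blood. Probes with a mean above the 30th percentile were tested (30522), and all 10 granule gene probes were among them. The platform annotation gave 10278 probes 1 symbol, 0 several and 33325 none. Accessions matched RefSeq names of Sscrofa11.1 for 6051 probes, 7 of them among the 10 granule gene probes. Granzymes are related genes, and their probes may share signal.

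Limma 3.58.1 (R 4.3.3) was fitted to all 8 samples with 4 group means (4 residual and 6.18 prior degrees of freedom), without a block for the sow. The Benjamini-Hochberg adjustment ran over all 30522 probes in each of 6 comparisons. The procedure was tested on simulated data with independent normal noise. These had no floor and no deviation shared by the samples of a sow, unlike the data used here. The replicate numbers pair the samples because the labels give the same sow. Deviations of the sows from the group means correlated by -0.0047 to 0.31 over the 6 pairs of groups. The alternatives were 75th percentile scaling, cyclic loess, normexp with offset 50, the matrix, a floor of 16 units, no filter, only probes above background in a whole group, the brightest probe of each gene, the sow as a block, a random block of sow and population, and leaving out each sample. With 2 samples per group, the number of arrays limits the precision.

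All probes of the 6 genes were named whatever their values, with the genes of the sort, the 3 genes most like each one, and up to 4 genes of each list with the largest difference between colostrum and blood averaged over the populations. The genes and lists were chosen with earlier results of these data known.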

Additional observations from a re-analysis of the deposited data

Results flagged for a closer look

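The dimmer probe of GZMA gave colostrum minus blood values of -0.47 in sow 1 and -0.65 in sow 2 for double positive cells, and of 1.89 and 0.28 for CD8 single positive cells, so that the sign differed between the populations. The difference of the differences was -1.65 ± 0.93 (SE, limma adjusted p = 1). Only the colostrum CD8 single positive samples were above background, and the double positive samples of colostrum and blood overlapped, so no direction can be read in double positive cells, where 75th percentile scaling gave 0.33.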

How the results depend on the processing

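Of the recomputed differences of the granule gene probes, 1000 kept their direction and side of the threshold, 12 newly passed it and 38 changed sign. The filters on probes and the block settings leave the difference itself unchanged, as does leaving out a sample outside a comparison. A change of sign was not possible in those cases, so the count of kept directions is not a measure of robustness. The mean difference of both sources, double positive minus CD8 single positive, kept a negative value for all 10 probes under every alternative run. Under 75th percentile scaling, colostrum minus blood turned to -0.65 and -0.17 (GZMB, brighter and dimmer probe) in CD8 single positive cells, and to 0.030 (PRF1), 0.33 (GZMA, dimmer), 0.029 (GZMM, dimmer) and 0.51 (GZMM, brighter) in double positive cells. Under cyclic loess the values in double positive cells were 0.99 (PRF1), 0.40 (GZMM, dimmer) and 0.84 (GZMM, brighter). Between the populations in blood, the dimmer GZMA probe turned to -0.26 under 75th percentile scaling and -0.090 under cyclic loess. The interaction turned to 0.20 (NKL) under 75th percentile scaling, to 0.47 (NKL) and 0.13 (GZMH, dimmer) under cyclic loess and to 0.086 (NKL) with normexp.

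Leaving out each sample in turn, colostrum minus blood in double positive cells ranged from -1.06 to 0.49 (PRF1), -1.25 to 0.26 (GZMM, dimmer) and -0.62 to 0.54 (GZMM, brighter), and without changing sign from 0.78 to 3.36 (GZMB, brighter) and 0.29 to 3.17 (GZMB, dimmer). Between the populations in blood, the GZMA probes ranged from -0.92 to 0.42 (brighter) and -0.65 to 1.03 (dimmer). The interaction ranged from -0.58 to 0.97 (PRF1), -0.77 to 0.62 (NKL), -0.81 to 2.07 (GZMB, dimmer), -0.93 to 0.28 (GZMH, brighter) and -1.03 to 0.38 (GZMH, dimmer).

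Over all probes, limma called 1 for double positive minus CD8 single positive cells as the mean of both sources. It called 0 under 75th percentile scaling, cyclic loess, the authors' deposited log2 values, a floor of 16 units, no filter and the random block of sow and population, 23 with normexp, 12 with only probes above background in a whole group, 4 with the brightest probe of each gene and 3 with the replicate block. The other comparisons had 0 calls, but with normexp 9 (colostrum minus blood, CD8 single positive), 1 (double positive), 6 (between populations in colostrum) and 2 (in blood), and 1 in CD8 single positive cells with the random block. Without 1 sample the calls were 0 for the mean of both sources, 0 to 2 for colostrum minus blood in CD8 single positive cells and 0 to 2 between the populations in colostrum, where 2 came from leaving out colostrum CD8 single positive cells of sow 2. A lone sample is then assumed to vary like the other groups. Apart from normexp, PRF1 passed for the mean of both sources with only probes above background (0.0349), the brightest probe (0.0115) and the replicate block (0.0215), and NKL with the same filters on probes (0.0432 and 0.0312). Normexp also called GZMB and GZMH (brighter probes, 0.0233 and 0.0477), PRF1 in colostrum (0.0189) and blood (0.0197) and NKL in colostrum (0.0401). The replicate block changed no other call of a granule gene. Fewer probes were tested under the filters. The cause of the other shifts was not tested. Signals near background and 2 samples per group limit GZMA, GZMM and the double positive levels of PRF1 and GZMB.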
